A study of Mus musculus with 8 samples.

Results

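The 10 genes described here encode the NF-kB subunits and the IkB proteins of mouse: Nfkb1, Nfkb2, Rel, Rela and Relb, and Nfkbia, Nfkbib, Nfkbid, Nfkbie and Nfkbiz. They were picked by gene name from a count table of 34745 Ensembl genes, and all 10 were found and passed the filter on low counts. Messenger RNA was sequenced from bone-marrow-derived macrophages (BMDM), primary macrophages grown from mouse bone marrow with macrophage colony-stimulating factor (M-CSF) at 20 ng/ml. The 8 libraries form 4 groups of 2: WT untreated, WT exposed for 6 h to R848 (100 ng/ml), KAT8-deficient untreated, and KAT8-deficient exposed to R848 in the same way. KAT8 (also called MOF) is a histone H4 acetyltransferase, and R848 (resiquimod) is a synthetic imidazoquinoline that activates the endosomal receptor TLR7. The titles call the KAT8-deficient cells KAT8-cKO. The allele, the Cre driver, the strain, the age of the mice and any pooling of animals were not given. Nothing in the labels ties the replicates of a group to different mice or dishes. The p-values therefore describe the spread among these libraries alone, and that spread may be technical.

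NF-kB is a family of dimeric transcription factors. In resting macrophages most dimers are held in the cytoplasm by IkB proteins. A Toll-like receptor signal activates the IkB kinase, the IkB proteins are degraded, and the freed dimers enter the nucleus and switch on inflammatory genes. Several genes of the system itself are well-known NF-kB targets, among them Nfkbia, whose newly made protein returns NF-kB to the cytoplasm and so closes a feedback loop. The family has 3 kinds of members here. Rela, Rel and Relb carry the transcription activation domains, and Nfkb1 and Nfkb2 encode precursors that are cut to the DNA-binding partners p50 and p52. Nfkbia, Nfkbib and Nfkbie encode the classical cytoplasmic inhibitors IkB-alpha, IkB-beta and IkB-epsilon. Nfkbid and Nfkbiz encode the atypical nuclear proteins IkBNS and IkB-zeta, which act on promoters together with NF-kB.

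Sequences before annotated starts of members that are themselves known or possible NF-kB targets are shown, with letters that match an NF-kB consensus marked. RefSeq windows (GRCm38.p6) were at hand for 7 of the 10 members, in 11 windows of 250 bases before an annotated transcription start. Each was searched on both strands for the kB consensus, which reads, from 5′ to 3′, G-G-G, a purine, any base, A or T, then 2 pyrimidines and C-C. Matches were present for 5 of the 7 genes, Nfkbia, Nfkbie, Nfkb2, Rel and Nfkbid, and were not found in these windows of Rela and Nfkbib. Over all 32544 windows searched in the same way, 3.92% held a match, and 5.51% of the 10535 tested genes with a window had a match in at least 1 window. A match is a run of letters only and does not show that a factor binds there. The windows below run 5′ to 3′ on the gene's strand in lower case, with the consensus matches in capitals, and stop before any annotated UTR. Of Nfkb2, which has 3 windows, only 30 bases of 1 window are shown. That window begins within an annotated UTR, so these 30 bases are an exception to the rule above. Another Nfkb2 window was free of annotated UTRs over its 250 bases and held 1 match, but is not printed.
Nfkbia, chr12:55492648-55492897, minus strand: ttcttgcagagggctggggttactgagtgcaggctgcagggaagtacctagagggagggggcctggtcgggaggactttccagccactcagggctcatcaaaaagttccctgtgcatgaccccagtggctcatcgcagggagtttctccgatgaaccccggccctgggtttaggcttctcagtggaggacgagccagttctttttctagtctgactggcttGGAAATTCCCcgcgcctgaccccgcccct
Nfkbie, chr17:45555450-45555699, plus strand: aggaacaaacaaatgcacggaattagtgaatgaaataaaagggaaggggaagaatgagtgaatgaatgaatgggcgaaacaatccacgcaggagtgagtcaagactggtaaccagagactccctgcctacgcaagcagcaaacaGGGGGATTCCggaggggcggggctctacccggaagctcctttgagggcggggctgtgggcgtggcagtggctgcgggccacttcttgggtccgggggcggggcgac
Rel, chr11:23770971-23771219, minus strand: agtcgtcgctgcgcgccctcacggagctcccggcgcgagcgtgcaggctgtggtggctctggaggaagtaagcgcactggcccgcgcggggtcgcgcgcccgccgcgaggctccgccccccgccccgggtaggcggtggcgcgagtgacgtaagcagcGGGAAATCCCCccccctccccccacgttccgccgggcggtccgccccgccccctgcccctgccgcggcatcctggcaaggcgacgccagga
Nfkbid, chr7:30422156-30422405, plus strand: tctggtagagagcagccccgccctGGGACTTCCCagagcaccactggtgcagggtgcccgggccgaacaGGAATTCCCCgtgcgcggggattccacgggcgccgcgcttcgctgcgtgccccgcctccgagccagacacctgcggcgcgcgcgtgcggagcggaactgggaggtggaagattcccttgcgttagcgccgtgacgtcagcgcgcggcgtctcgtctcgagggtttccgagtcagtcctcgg
Nfkb2, chr19:46304688-46304717, plus strand, 30 bases around its palindromic match: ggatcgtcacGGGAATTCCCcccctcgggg

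In Nfkbia the match began 29 bases before the start, and in Nfkbie 106 bases before it. Rel held overlapping matches that began 92 and 91 bases before the start. Nfkbid held matches at 226 and 181 bases in the window shown, while its other 2 windows held 0. The Nfkbid window shown lies within the annotated span of the gene, before a start further in. The window just before that span was among those with 0. Nfkb2 had matches in each of its 3 windows, which also lie within the annotated span of that gene. The printed palindromic match began 39 bases before the start. An overlapping match began 38 bases before it and takes in the base after the capitals shown.

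Each library held between 18550977 and 21384532 counts, and the test covered 14040 genes. At this depth the floor of 3 counts lay at 0.14 to 0.163 CPM (the count scaled to the TMM-normalised library size; counting error only), far below every member value given here. Kat8 was lower in each KAT8-deficient library (8.76 to 10.8 CPM) than in each WT library (15.98 to 18.03 CPM), and untreated cells differed by -0.83 on the log2 scale (SE 0.126, edgeR adjusted p = 0.0113). The 8 macrophage markers were all detected. Their summed level was 14940 to 16380 CPM in WT and 8548 to 9647 CPM in KAT8-deficient libraries. Lyz2, a lysozyme gene, held most of that sum. Without it the sum was 3759 to 4241 CPM in WT and 3345 to 3734 CPM in KAT8-deficient libraries. Markers of fibroblasts and other stromal cells were also present, all 8 of 8, at a summed 2395 to 3338 CPM in WT and 3573 to 4139 CPM in KAT8-deficient libraries. Of these 8, 6 were higher in KAT8-deficient cells untreated and 6 under R848, and in the WT response 1 rose and 2 fell. Of the 8 macrophage markers, 4 were lower in KAT8-deficient cells under R848 (Adgre1 at -0.41, Csf1r at -0.39, Cd14 at -0.65 and Lyz2 at -1.14) and 1 was higher (Fcgr1 at 1.09). In the WT response 3 macrophage markers rose and 2 fell, and 3 of 4 smooth muscle markers fell. Over all 14040 genes tested, 600 were called in the untreated genotype comparison, 1911 under R848 and 1916 in the WT response, counting either direction. Smooth muscle markers summed to 303 to 390 CPM in WT and 396 to 593 CPM in KAT8-deficient libraries. Endothelial markers summed to 21.2 to 34.0 CPM in WT and 29.1 to 38.6 CPM in KAT8-deficient libraries. Of the 2 tested, Kdr fell in the WT response (-0.68) and was higher in KAT8-deficient cells under R848 (0.53), and Cdh5 passed in neither. Dendritic cell markers reached at most 9.75 CPM, neutrophil markers 7.89 CPM, B cell markers 1.74 CPM and T cell markers 0.978 CPM in any library. Their part in the results on NF-kB genes was not tested, and in such bulk samples fewer cells of a type and less RNA per cell cannot be told apart.

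The 2 R848-treated KAT8-deficient libraries stood apart from each other in these genes. All 10 members were higher in replicate 2 than in replicate 1, and 8 of them by over 0.2 on the log2 scale. Of 9187 genes with a mean of at least 10 CPM, 10.5% had a gap above 0.2 in that direction, and the median gap was 0.01. The members' median gap was 0.37, with Nfkbie widest at 0.69 and Nfkbib narrowest at 0.05. The untreated WT pair differed in the same direction to a lesser extent, with 8 members higher in replicate 2, a median gap of 0.19, and 4 members over 0.2 against 11.9% of genes. In the R848-treated WT pair the members' median gap was 0.02 and in the untreated KAT8-deficient pair 0.04, with 0 members over 0.2 in both.

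**Figure D1:**
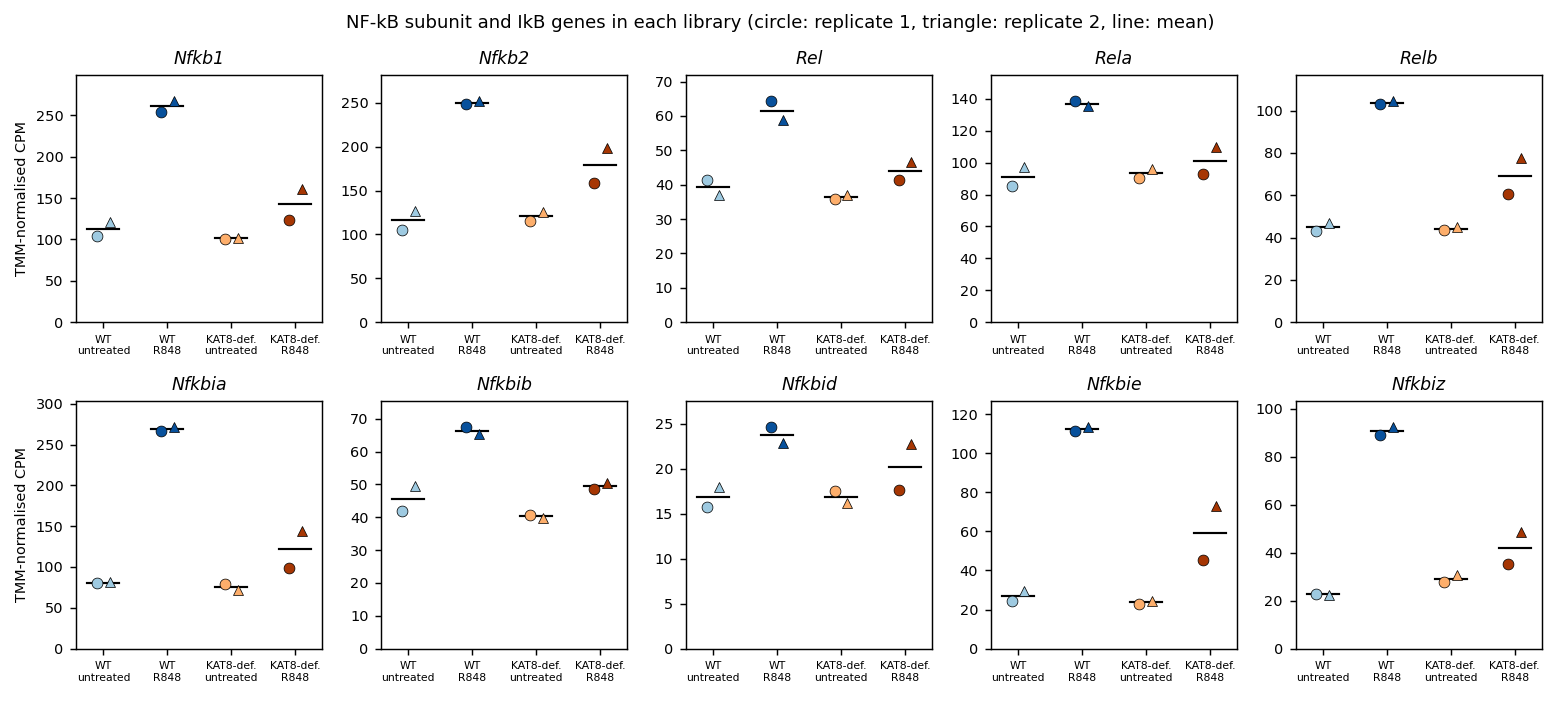
TMM-normalised CPM of each of the 10 genes in the 8 libraries, with an own linear axis from 0 per gene. Circles are replicate 1, triangles replicate 2 and lines the group means. R848-treated WT libraries are the highest for every gene, and for Nfkbia the R848-treated KAT8-deficient pair, at 98.9 and 145 CPM, lies wider apart than the WT pair at 267 and 271.

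The levels per length set the members in order before any change. CPM per kilobase of annotated exon was used, since raw CPM grows with transcript length. The exon length joins all annotated transcripts of a gene, so exons that are not used lower the value. For Nfkb1 it was 12.06 kb, and in raw CPM its untreated WT mean of 112.9 lay close to 116.2 for Nfkb2. The order thus depends on the annotation. In untreated WT cells Nfkbia was the highest by this measure, at 50.3 ± 1.00 CPM per kb (SD, n = 2). Rela followed at 29.7 ± 2.82 and Nfkb2 at 25.35 ± 3.37 CPM per kb (SD, n = 2), and the libraries of these 2 genes overlapped. Nfkbib stood at 21.1 ± 2.42 and Relb at 11.6 ± 0.739 CPM per kb (SD, n = 2). Nfkb1 at 9.36 ± 0.941 and Nfkbie at 8.88 ± 1.13 CPM per kb (SD, n = 2) overlapped with each other. The lowest were Nfkbid at 7.18 ± 0.655, Rel at 5.25 ± 0.415 and Nfkbiz at 4.50 ± 0.0371 CPM per kb (SD, n = 2). The order in untreated KAT8-deficient cells was the same except at its end, where Nfkbiz stood above Rel. Under R848 Nfkbia remained first in both genotypes. In WT cells Nfkbie moved from the 7th to the 4th place, at 36.9 ± 0.395 CPM per kb, and Nfkbiz from the 10th to the 8th, at 18.1 ± 0.418 CPM per kb (SD, n = 2).

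**Figure D2:**
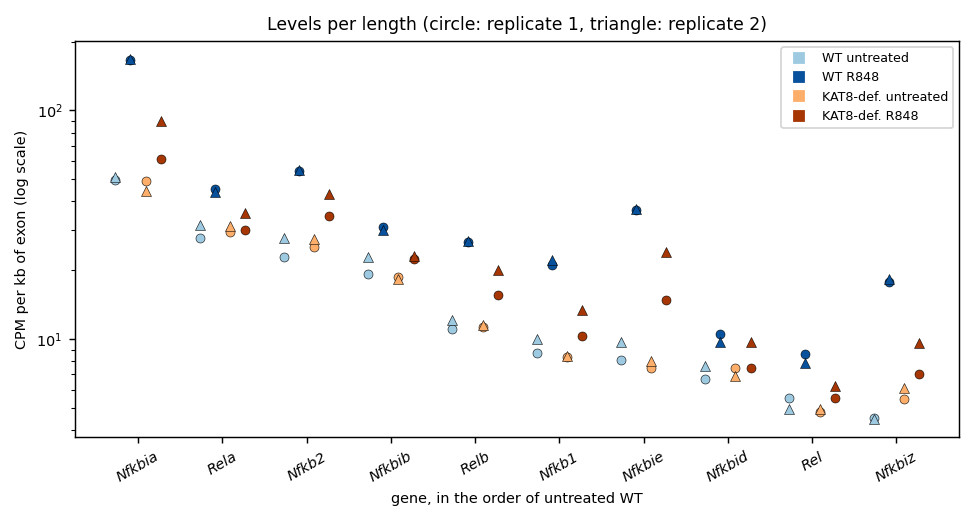
CPM per kilobase of exon (log scale) of the 10 genes in the 8 libraries, in the order of untreated WT cells. Circles are replicate 1 and triangles replicate 2. Nfkbia is the highest gene in each group, and Nfkbie stands 4th and Nfkbiz 8th in R848-treated WT cells.

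The first comparison asks how the NF-kB genes responded to R848 in WT macrophages. All 10 rose over all genes tested by edgeR's quasi-likelihood test (adjusted p under 0.05), where 6.94% of the 14040 tested genes were called higher. In each of the 10 both treated libraries lay above both untreated ones, as they did in 27.7% of tested genes. The members' median log2 change was 1.157, against -0.002 for all genes. The 3 cytoplasmic inhibitors had a median of 1.73, the 5 subunits 1.11, and the nuclear pair 0.49 and 2.01.

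Among the subunits, Nfkb1 (ENSMUSG00000028163, chromosome 3, 135584655 to 135691547, GRCm38) stood at 105 and 121 CPM in untreated WT libraries and at 254 and 267 CPM under R848. This is a rise of 1.21 on the log2 scale (SE 0.119, edgeR adjusted p = 0.000351), or 2.31-fold. Nfkb2 (ENSMUSG00000025225, chromosome 19, 46304320 to 46312385) went from 105 and 127 CPM to 248 and 252 CPM, a log2 rise of 1.11 (SE 0.119). For both precursor genes the treated libraries lay close together and far above the untreated ones. Relb (ENSMUSG00000002983, chromosome 7, 19606217 to 19629438), the activating partner of p52, rose from 42.9 and 47.0 CPM to 103 and 104 CPM, by 1.21 (SE 0.111, edgeR adjusted p = 0.000264). Rel (ENSMUSG00000020275, chromosome 11, 23736847 to 23770970), which encodes c-Rel, moved less, from 41.4 and 37.0 CPM to 64.3 and 58.7 CPM, with a log2 rise of 0.65 (SE 0.091). Rela (ENSMUSG00000024927, chromosome 19, 5637483 to 5648130), which encodes the main activating subunit p65, had the smallest rise of the 5, from 85.1 and 97.4 CPM to 139 and 135 CPM. Its log2 change was 0.59 (SE 0.0948, edgeR adjusted p = 0.0045).

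Among the cytoplasmic inhibitors, Nfkbia (ENSMUSG00000021025, chromosome 12, 55489410 to 55492647) rose from 79.8 and 82.1 CPM to 267 and 271 CPM. Its log2 rise was 1.73 (SE 0.15, edgeR adjusted p = 0.000215), and its gain of 188 CPM was the largest of the 10 in absolute terms. Nfkbie (ENSMUSG00000023947, chromosome 17, 45555703 to 45563169) had the largest fold, from 24.6 and 29.5 CPM to 112 and 113 CPM, or 4.16-fold. It ranked 99th of the 14040 genes by absolute log2 change. Nfkbib (ENSMUSG00000030595, chromosome 7, 28758251 to 28767512) rose least of the 3, from 41.9 and 49.4 CPM to 67.4 and 65.3 CPM, by 0.54 on the log2 scale (SE 0.085). Its exons share 42 bases with Sirt2 on the opposite strand, and whether the counting used strand was not given, so reads in those bases are uncertain. Sirt2 itself stood at 116 and 165 CPM in untreated WT and at 114 and 131 CPM in treated WT libraries. The Nfkbib exons also share 314 bases with Ccer2 on the opposite strand, which had 0 counts in all 8 libraries. Nfkb2 likewise shares 299 exon bases with Psd, at 2.04 to 4.12 CPM over the 8 libraries, and 531 with the non-coding AC114539.1, which was not analysed here, both on the opposite strand.

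The nuclear pair split. Nfkbiz (ENSMUSG00000035356, chromosome 16, 55811375 to 55838899) went from 22.7 and 22.4 CPM to 89.2 and 92.2 CPM, 4.02-fold, with an adjusted p of 9.4e-05 by edgeR, the smallest among the 10. Nfkbid (ENSMUSG00000036931, chromosome 7, 30421732 to 30428746) rose from 15.8 and 17.9 CPM to 24.6 and 22.8 CPM, only 1.41-fold (log2 0.49, SE 0.136, edgeR adjusted p = 0.0449). The Nfkbid call was the least stable. With 1 library left out at a time it was kept 2 of 8 times, with adjusted p from 0.0209 to 0.212, and was lost when any library of WT cells or of untreated KAT8-deficient cells was left out. The other 9 calls were kept all 8 times.

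The next comparison asks the same in KAT8-deficient macrophages. Its group means share no library with the WT comparison, but both tests take their spread from all 8 libraries and so are not independent. Of the 10 members only Nfkbie rose past the threshold, where 0.499% of all tested genes were called higher. Nfkbie went from 22.8 and 24.4 CPM to 45.3 and 73.0 CPM, 2.5-fold (log2 1.32, SE 0.196, edgeR adjusted p = 0.0327). For 9 of the 10, with Rela the exception, both treated libraries lay above both untreated ones, against 23.8% of tested genes. The members' median was 0.507, against 0.002 for all genes, and 8 of the 10 had an unadjusted p under 0.05, as did 13.8% of all tested genes.

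Among the other inhibitors, Nfkbia had 79.4 and 71.2 CPM without and 98.9 and 145 CPM with R848 (log2 0.69, SE 0.149, edgeR adjusted p = 0.0954). Nfkbiz had 27.6 and 30.7 CPM without and 35.2 and 48.4 CPM with R848 (log2 0.52, SE 0.135, edgeR adjusted p = 0.149). In both genes the treated libraries did not overlap the untreated ones, but lay far below the treated WT libraries. Nfkbib had values of 40.7 and 39.9 CPM untreated and 48.5 and 50.3 CPM treated, and Nfkbid 17.5 and 16.2 CPM untreated and 17.6 and 22.7 CPM treated. Of these the Nfkbid treated replicate 1 lay next to an untreated library.

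Among the subunits, Relb missed the threshold by the narrowest margin. It had 43.8 and 44.8 CPM without and 60.5 and 77.8 CPM with R848 (log2 0.64, SE 0.112, edgeR adjusted p = 0.05002). Nfkb1 had 101 and 102 CPM untreated and 124 and 161 CPM treated, and Nfkb2 115 and 126 CPM untreated and 159 and 198 CPM treated. Both thus lay higher after R848 in every library, with log2 changes of 0.49 and 0.57 (edgeR adjusted p = 0.124 and 0.0868). Rel had 35.9 and 37.1 CPM untreated and 41.2 and 46.5 CPM treated (log2 0.27, SE 0.0918). Rela was the flattest member, at 90.6 and 96.0 CPM untreated and 92.6 and 110 CPM treated, so that its groups overlapped (log2 0.12, SE 0.0949, 95% interval -0.10 to 0.33).

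The count of 1 called member depended on the libraries and on the settings. The Nfkbie change lay between 0.94 and 1.62 with 1 library left out and was called 4 of 8 times. The count became 6 without KAT8-deficient R848 replicate 1, the lower of the treated pair (Nfkb1, Nfkb2, Relb, Nfkbia, Nfkbie and Nfkbiz), and 0 without either untreated KAT8-deficient library or without either R848-treated WT library. It stayed 1 without KAT8-deficient R848 replicate 2. Without replicate 1 or 2 of that group, the log2 change was 0.94 or 0.39 for Nfkbia, 0.73 or 0.27 for Nfkbiz and 0.23 or -0.01 for Rela. DESeq2's Wald test and the fit with no filter on low counts each called 6, and the fit of these 4 libraries alone called 0.

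**Figure D3:**
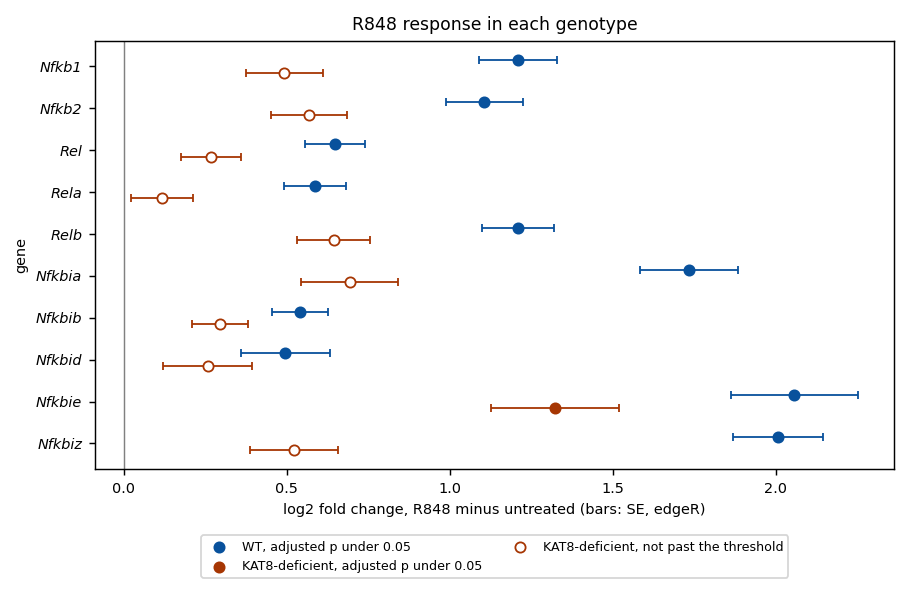
Log2 fold change of each gene under R848 in WT (blue) and KAT8-deficient cells (brown), with edgeR standard errors as bars. Filled points passed the adjusted threshold. Each brown point lies to the left of its blue point, and Nfkbie at 1.32 is the filled brown point.

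The genotypes were then compared without R848. None of the 10 genes passed edgeR's test between untreated KAT8-deficient and untreated WT cells, where 4.27% of all tested genes were called. Their median log2 difference was -0.062, against -0.007 for all genes. Only Nfkbiz had an unadjusted p under 0.05, 0.0277 by edgeR's quasi-likelihood test across all genes, and 20.3% of all tested genes were under 0.05. Its values were higher in KAT8-deficient cells, at 27.6 and 30.7 CPM against 22.7 and 22.4 CPM (log2 0.37, SE 0.139, edgeR adjusted p = 0.183). DESeq2's Wald test and limma-voom also called 0. Both KAT8-deficient libraries lay above both WT libraries for 1 member, Nfkbiz, against 24.9% of tested genes, and below them for 4 (Nfkb1, Nfkbia, Nfkbib and Nfkbie), against 25.5%. For Nfkbia the 95% interval of the difference ran from -0.44 to 0.24, for Rela from -0.18 to 0.25 and for Nfkb1 from -0.43 to 0.12. That of Nfkbie was the widest, from -0.65 to 0.26, and that of Nfkbiz ran from 0.05 to 0.69. Differences of such sizes are thus not excluded.

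Under R848 the picture was different. Of the 10 members 9 were lower in KAT8-deficient than in WT cells, where 5.47% of all tested genes were called lower. For all 10, both KAT8-deficient libraries lay below both WT libraries, as in 30.3% of tested genes. The members' median log2 difference was -0.537, against -0.007 for all genes. These are the treated libraries already given above, so this comparison shares them with the responses. Nfkbia had the widest difference, -1.14 (SE 0.147, edgeR adjusted p = 0.00164), which is 2.21-fold lower. Nfkbiz followed at -1.12 (SE 0.131, edgeR adjusted p = 0.00112), Nfkbie at -0.93 (SE 0.186) and Nfkb1 at -0.87 (SE 0.118, edgeR adjusted p = 0.00206). The other 4 subunits lay between -0.59 for Relb and -0.44 for Rela, close to Nfkbib at -0.43 (SE 0.0845). Nfkbid alone did not pass, at -0.24 (SE 0.134, edgeR adjusted p = 0.296), and its KAT8-deficient replicate 2 at 22.7 CPM nearly reached WT replicate 2 at 22.8 CPM.

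Only Nfkb1, Nfkbia and Nfkbiz of the 9 were called whichever of the 8 libraries was left out. The count was 3 without WT R848 replicate 1, 4 without WT R848 replicate 2 and 5 without KAT8-deficient R848 replicate 1, and 9 without any of the other 5 libraries. Without KAT8-deficient R848 replicate 1, which had the lower values in all 10 genes, the Nfkbia difference was -0.89 and that of Nfkbiz -0.90. Without replicate 2 of that group they were -1.44 and -1.36.

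**Figure D4:**
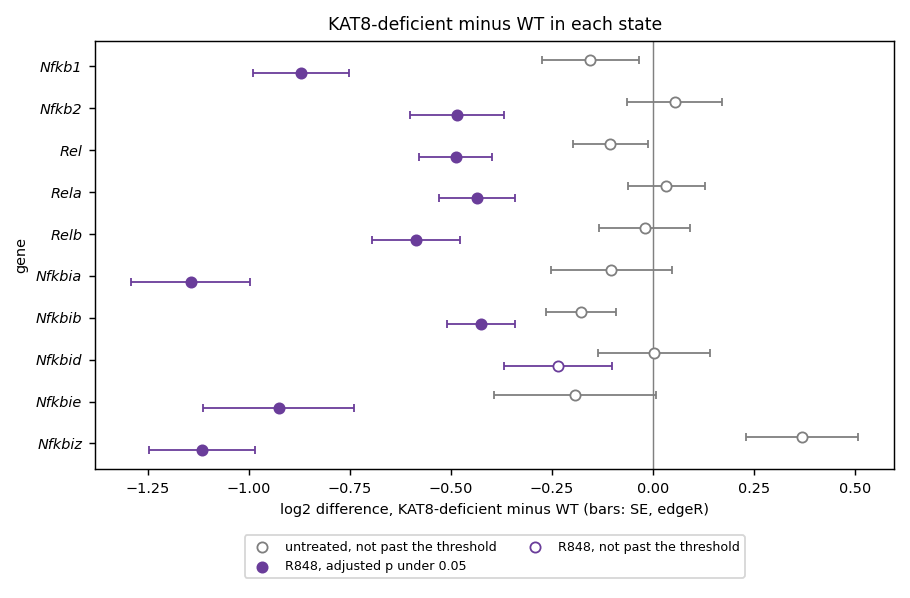
Log2 difference between KAT8-deficient and WT cells, untreated (grey) and under R848 (purple), with edgeR standard errors as bars. Filled points passed the adjusted threshold. Untreated points lie between -0.19 and 0.37, and R848 points between -1.14 and -0.24, all to the left of 0.

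The interaction asks whether the response itself differed between the genotypes. It is the KAT8-deficient log2 response minus the WT log2 response. Nfkbiz alone passed, at -1.48 (SE 0.191, edgeR adjusted p = 0.0286), so that its 4.02-fold rise in WT cells was 2.8 times the 1.44-fold change in KAT8-deficient cells. Lower interaction calls made up 0.171% of all tested genes. The estimate was below 0 for all 10 members, with a median of -0.551 against 0.006 for all genes, and 8 of the 10 had an unadjusted p under 0.05, as did 11.4% of all tested genes. Nfkbia came next, at -1.04 (SE 0.209, edgeR adjusted p = 0.0833), followed by Nfkbie at -0.73 (SE 0.272) and Nfkb1 at -0.72 (SE 0.167), whose adjusted p values were 0.342 and 0.121 by edgeR. The smallest estimates were those of Nfkbid at -0.24 and Nfkbib at -0.25. Apart from Nfkbiz, no single member's difference in response passed.

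Leaving out libraries bore on this call too. The interaction of Nfkbiz kept a size between -1.72 and -1.27 but passed in only 2 of 8 such fits, those without 1 of the R848-treated KAT8-deficient libraries (adjusted p from 0.00237 to 0.108 over the 8). The count of called members was 0 without any single library of the other 3 groups, 2 without KAT8-deficient R848 replicate 1 and 5 without KAT8-deficient R848 replicate 2.

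In CPM, the mean gain of Nfkbia in KAT8-deficient cells was 24.7% of that in WT cells, 46.4 against 188 CPM. With treated replicate 1 alone the share was 12.5%, and with replicate 2 alone 36.8%. For Nfkbiz it was 18.7%, 12.7 against 68.1 CPM, and 8.98% or 28.4% with either replicate alone. For both genes either library stayed below the WT gain, but the size of the share depended on the library. For Rela the mean share was 17.3%, with -1.55% in replicate 1 and 36.2% in replicate 2. For Nfkbid it was 47.9%, with 10.7% and 85.1%, so that the order of the members by this share changes with the library. These shares carry no test.

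Pearson's r of log2 CPM between members ran from 0.869 (Rel and Nfkbid) to 0.997 (Relb and Nfkbie) over 45 pairs, with a median of 0.944. All genes share these 8 libraries and their 4 groups, so r is given as a description. Among 10100 other genes with a mean of at least 5 CPM, those most like Nfkbie were Tm9sf4, a transmembrane protein gene, at r = 0.995, Ifnar1, a subunit of the type I interferon receptor, at 0.994, and Ampd3, an AMP deaminase gene, at 0.994. Those most like Nfkbiz were Rbpj-ps3, a pseudogene and so uncertain, at 0.995, the neutrophil-attracting chemokine gene Cxcl1 at 0.994, and Pilra, an inhibitory receptor gene, at 0.993. Among those most like Nfkbia were Abcc1, a drug and leukotriene exporter gene, at 0.997 and Rab20, a small GTPase gene, at 0.996.

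A list of 11 genes covered the IkB kinase, factors above it and related or linked kinases. Of these, 3 rose in WT cells under R848, where 6.94% of all tested genes rose, and 0 fell. Their median was 0.203, against -0.002 for all genes. The other 8, with Chuk, Ikbkb and Ikbkg of the IkB kinase itself among them, did not pass. Ikbke, an IKK-related kinase gene, rose from 159 and 157 CPM to 282 and 312 CPM (log2 0.91, SE 0.0858, edgeR adjusted p = 0.000287). Map3k8, the Tpl2 kinase whose partner is the Nfkb1 precursor, rose by 0.90 (SE 0.122) and Tbk1 by 0.34 (SE 0.065). In the KAT8-deficient response Ikbke alone of the 11 passed, at 0.68 (SE 0.0859, edgeR adjusted p = 0.0273), where 0.499% of all tested genes were called higher. Map3k8 came close, at 0.66 (SE 0.122, edgeR adjusted p = 0.0599). An unadjusted p under 0.05 was found there for 4 of the 11, against 13.8% of all tested genes. Between genotypes under R848, 3 of the 11 were lower, where 5.47% of all tested genes were, with Ikbke at -0.47 (SE 0.085), Chuk, which encodes IKK-alpha, at -0.27 (SE 0.0752, edgeR adjusted p = 0.0464), and Tbk1 at -0.23 (SE 0.0648). None of the 11 passed edgeR's test in the untreated genotype comparison or in the interaction. At an unadjusted p under 0.05 there were 3 and 1, against 20.3% and 11.4% of all tested genes.

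Of 10 genes for the ubiquitin ligase that marks IkB proteins and for NF-kB turnover, 0 passed edgeR's test in any of the 5 comparisons. At an unadjusted p under 0.05 there were 0 in the KAT8-deficient response, 1 in the untreated genotype comparison and 1 in the interaction. Over all tested genes the shares were 13.8%, 20.3% and 11.4%. There were also 2 in the WT response and 2 under R848, where 1916 and 1911 of the 14040 tested genes passed even the adjusted threshold. Of 6 further IkB-like and partner genes, only Bcl3, an atypical IkB relative that binds p50 and p52, passed anywhere. It rose in WT cells from 22.5 and 26.5 CPM to 48.5 and 49.9 CPM (log2 1.01, SE 0.143, edgeR adjusted p = 0.00226), where 6.94% of all tested genes were called higher. KAT8-deficient libraries had 27.55 and 26.7 CPM of Bcl3 without and 31.2 and 42.8 CPM with R848 (log2 0.45, SE 0.143, edgeR adjusted p = 0.228). Its genotype difference under R848 was -0.41 (SE 0.14, edgeR adjusted p = 0.0912) and its interaction -0.56 (SE 0.202, edgeR adjusted p = 0.326).

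A list of 8 genes gathered as candidates for control by IkB-zeta, among them Il6, Il12b and Lcn2, which are known to need it in macrophages, was read beside Nfkbiz. Of the 7 tested, 5 rose in WT cells, against 6.94% of all tested genes, and 0 fell. Under R848, 4 of the 7 were lower in KAT8-deficient than in WT cells, against 5.47% of all tested genes, with a median difference of -0.887 against -0.007. Cebpd, a C/EBP transcription factor gene, stood at 14.6 and 16.3 CPM in untreated WT, 34.0 and 35.9 CPM in treated WT, 22.5 and 19.7 CPM in untreated KAT8-deficient and 22.0 and 23.0 CPM in treated KAT8-deficient libraries. It was thus higher without R848 and lower with it in KAT8-deficient cells, and its interaction passed at -1.09 (SE 0.142, edgeR adjusted p = 0.0295). The other 6 of the 7 did not pass the interaction test, where 0.171% of all tested genes were called lower. Lcn2, an iron-scavenging lipocalin gene, rose in WT cells by 1.39 (SE 0.206, edgeR adjusted p = 0.00283) and its difference between genotypes under R848 was -1.44 (SE 0.205, edgeR adjusted p = 0.00262). Its interaction was -1.29 (SE 0.307, edgeR adjusted p = 0.128). Csf3, which encodes the growth factor G-CSF, rose in WT cells by 2.34 (SE 0.421), but rests on few counts, 10 and 6 untreated and 29 and 50 treated. Il12b, which encodes a subunit of the cytokine IL-12, stood at 11.4 and 7.86 CPM in treated WT against 0.33 and 0.896 CPM in treated KAT8-deficient libraries (log2 -3.96, SE 0.712, edgeR adjusted p = 0.00778). The untreated WT libraries held 0 and 23 counts of Il12b, and its interaction was -0.63 (SE 3.24, edgeR adjusted p = 0.967). A difference in its response is thus not shown. Camp, an antimicrobial peptide gene that is also among the neutrophil markers, was lower in KAT8-deficient cells under R848 too. It rests on 14 and 15 counts in treated WT against 3 and 2 in treated KAT8-deficient libraries. Il6, chosen for mention after its values were seen, stayed between 0.66 and 1.74 CPM in all 8 libraries and passed no test. Whether Nfkbiz bears on these genes was not tested.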

How the data were processed

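Poly(A) RNA libraries of 8 BMDM samples were read from 1 table of raw gene counts that the authors deposited. Per the submitters' processing notes HISAT2, StringTie 1.3.0 and edgeR were used with mm10, with no role stated for each and no strand setting given. Counts were normalised by TMM, filtered with filterByExpr (14040 of 34745 genes remained) and tested with edgeR 4.0.16 (quasi-likelihood, all 8 libraries, 4 groups, R 4.3.3), two-sided, with Benjamini-Hochberg adjustment over all genes tested and a threshold of 0.05. Symbols matched 34267 gene IDs. SE is the log2 change divided by the root of F. Total counts of 18550977 to 21384532 set the precision, and the common biological coefficient of variation was 0.0956. Alternatives used DESeq2 1.42.0, limma 3.58.1, other filters and left-out libraries. The code was tested on simulated data. The members and gene lists were chosen with earlier results of these data known. All 10 members are named. From each list up to 4 called genes with the smallest adjusted p are named in a comparison. The 3 genes most like Nfkbie, Nfkbiz and Nfkbia were taken by Pearson's r, of which 1 is not reported here.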

Additional observations from a re-analysis of the deposited data

Results flagged for a closer look

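The R848 response of Nfkbiz differed between the genotypes by a test of the difference itself. The interaction was -1.48 on the log2 scale (SE 0.191, 95% interval -1.92 to -1.05, edgeR adjusted p = 0.0286), with 22.7 and 22.4 CPM going to 89.2 and 92.2 CPM in WT cells and 27.6 and 30.7 CPM going to 35.2 and 48.4 CPM in KAT8-deficient cells. The call held in only 2 of 8 fits with 1 library left out, with adjusted p from 0.00237 to 0.108 by edgeR and an interaction between -1.72 and -1.27.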

How the results depend on the processing

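No member changed direction in a call under any setting run. In the WT response 9 or 10 of the 10 members were called under every setting, and 0 under every setting in the untreated genotype comparison. The KAT8-deficient response, with 1 called member, gave 2 with DESeq2's size factors and with at least 5 CPM in at least 2 libraries, 6 with no filter on low counts and with DESeq2's Wald test, 0 with only the 4 libraries of the comparison, and 0 to 6 when each library was left out. With the replicate block it gave 3. Robust estimation of the spread also called 1, but this was Relb and not Nfkbie. Under R848 the genotype difference called 9 members, 8 with robust estimation, and 3 to 9 when each library was left out. The interaction gave 1, then 3 with no filter and with DESeq2's Wald test, and 0 to 5 when each library was left out. Over all genes the KAT8-deficient response called 89 genes, against 274 with no filter, 238 with DESeq2's Wald test, 158 with robust estimation and 22 with its 4 libraries. The interaction called 32, against 245, 231 and 148 under the first 3 of these. The cause of these shifts was not tested. The replicate numbers are shared by the groups. Between libraries of the same number, deviations from the group means had correlations of -0.06 to 0.048 over all genes. Such a correlation cannot exclude pairing in some genes, and the labels do not say whether libraries were paired. The replicate block gave 9, 3, 0, 9 and 1 called members in the 5 comparisons. With it the Nfkbid rise in WT cells was lost, at an edgeR adjusted p of 0.0539. With 2 libraries a group, leaving 1 out assumes that the lone library varies like the other groups.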
